A study of Mus musculus with 6 samples.

Results

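The genes described here encode the histone lysine methyltransferases and demethylases of the mouse other than the enzymes of H4K20, the residue modified by Kmt5b. They are 40 genes picked by symbol from a list of such enzymes, out of 54429 gene rows in the deposited tables, and all 40 had enough reads to be tested among 24419 genes. The list holds 19 methyltransferases (writers) and 15 demethylases (erasers), each placed under a single histone H3 residue, although some can act on more. A further 6 members have a SET or MYND-SET domain but an unsettled or non-histone substrate.

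Histone lysine methylation is added by SET domain proteins, with Dot1l as the exception in fold, and is removed by the amine oxidases Kdm1a and Kdm1b or by Jumonji enzymes. Methylation of H3K4 marks promoters and enhancers, that of H3K36 and H3K79 marks transcribed gene bodies, and that of H3K9 and H3K27 marks repressed chromatin. Many of these genes, among them Kmt2a, Kmt2c, Kmt2d, Setd1a, Setd2, Setd5, Ehmt1, Nsd1, Ash1l, Kdm5c and Kdm6a, are known from human neurodevelopmental disorders, as is KMT5B itself.

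Bulk RNA of the prefrontal cortex was sequenced from mice injected with AAV9 (an adeno-associated virus) carrying a short hairpin RNA against Kmt5b, in 3 libraries, and from mice injected with AAV9 carrying GFP, in 3 libraries. The mice were 6 to 8 weeks old and are C57BL6/J in the sample labels, but a C57BL/6 x C3H cross in the design text. That text counts 3 Kmt5b shRNA mice and 2 GFP mice, so a pair of GFP libraries may come from 1 mouse, and the p-values below cover no more than the spread of these 6 libraries, which may be technical. AAV9 enters a part of the cells of a tissue, and the promoters of the hairpin and of GFP are not given in the sources used here.

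Kmt5b, the targeted gene, had 68.5, 80.3 and 63.9 CPM (reads scaled to a common library size) in Kmt5b shRNA libraries 1, 2 and 3, against 86.5, 79.7 and 80.9 CPM in GFP libraries 1, 2 and 3. Its log2 fold change was -0.22 ± 0.10 (SE) with an adjusted p of 0.303, and Kmt5b shRNA library 2 lay inside the GFP range. The knockdown was thus not called in these libraries, and every direction below rests on the labels. Total counts were 48828638 to 57486203 in the Kmt5b shRNA libraries and 29490771 to 74723284 in the GFP libraries. Over all genes tested, 676 were called higher and 1390 lower in Kmt5b shRNA, at an edgeR adjusted p under 0.05, and the median log2 fold change was -0.017. Of 9 astrocyte markers 3 were called lower (Aqp4, Gja1 and Gjb6) and none higher, while Gfap (0.39, adjusted p = 0.545) and Sox9 (0.26, adjusted p = 0.416) stood above 0 with overlapping groups. The list summed to 4172 to 4755 CPM in Kmt5b shRNA and 4890 to 5027 CPM in GFP, of which Slc1a2, not called (-0.16, adjusted p = 0.554), gave 2417 to 2884 CPM in Kmt5b shRNA and 2784 to 2988 CPM in GFP. The 9 oligodendrocyte markers, none of them called, summed to 1512 to 3181 CPM in Kmt5b shRNA and 2755 to 4191 CPM in GFP. Of 7 lymphocyte markers 3 were called lower (Cd3d, Cd4 and Cd79a), with list sums of 18.01 to 35.03 CPM in Kmt5b shRNA and 31.4 to 72.7 CPM in GFP. Most of these sums was Ptprc, not called (adjusted p = 0.534), at 15.4 to 31.1 CPM in Kmt5b shRNA and 24.4 to 57.0 CPM in GFP. Counts were few, as for Cd3d with 14, 8 and 21 in Kmt5b shRNA, against 34, 19 and 181 in GFP. The 8 neuron markers summed to 7271 to 7788 CPM in Kmt5b shRNA and 6867 to 8481 CPM in GFP, and no marker of any list was at 0 in all libraries. In bulk tissue, fewer cells of a type and less RNA per cell cannot be told apart, and the part of these shifts in the values below was not tested.

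Intronless copies of protein-coding genes, most of them processed pseudogenes, stood apart from all other genes. Of 1767 such copies tested, 996 (56.4%) were called lower in Kmt5b shRNA and 41 (2.32%) higher, with a median log2 fold change of -1.61. Together, the copies found among the deposited gene symbols had 2601 to 2775 CPM in Kmt5b shRNA and 11525 to 12965 CPM in GFP. Of the 22652 other genes tested, 394 (1.74%) were called lower and 635 (2.80%) higher, with a median of -0.00012. The sources name more than 1 aligner and do not say whether the libraries of both groups were processed alike, so a difference in processing cannot be told apart from the groups. This bears on every fold change below, and most directly on genes that have such copies.

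Few transcripts of the other lysine methyltransferases and demethylases could be told apart between the groups. Kdm2b, an H3K36 demethylase, was the only member called: it rose by 30.8% in Kmt5b shRNA (95% interval 11.99% to 52.8%). The 1 of 40 members called higher is a share of 2.5%, against 2.77% of all genes tested, and none was called lower, against 5.69% of all genes. At an unadjusted p under 0.05 there were 3 members (7.5%), Kdm2b, Kdm5c and Suv39h1, against 17.4% of all genes. The CPM of the groups did not overlap for 7 members higher in Kmt5b shRNA (17.5%, against 9.84% of all genes) and for 1 lower (2.5%, against 12.7%). The log2 fold change was above 0 for 31 of 40 members (77.5%), against 47.3% of all genes, and its median was 0.088. Among the tested genes that are not intronless copies, the shares were 1.74% called lower, 13.3% at an unadjusted p under 0.05, 10.3% higher and 8.32% lower without overlap, and 49.97% above 0. These shares describe the list and were not tested.

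Most members had narrow intervals on the spread of these libraries. For 34 of the 40 members the 95% interval of the fold change lay within 1.5-fold in either direction. These intervals do not take in a difference in processing between the groups, or GFP libraries that may share a mouse. They are thus no limit on a change in the animals, and the part of either in them was not tested. Standard errors of the members ran from 0.090 to 0.29 on the log2 scale, with a median of 0.10, against a median of 0.20 over all genes tested. For a single gene, an exact two-sided permutation test of 3 against 3 libraries cannot go below 0.1.

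**Figure D1:**
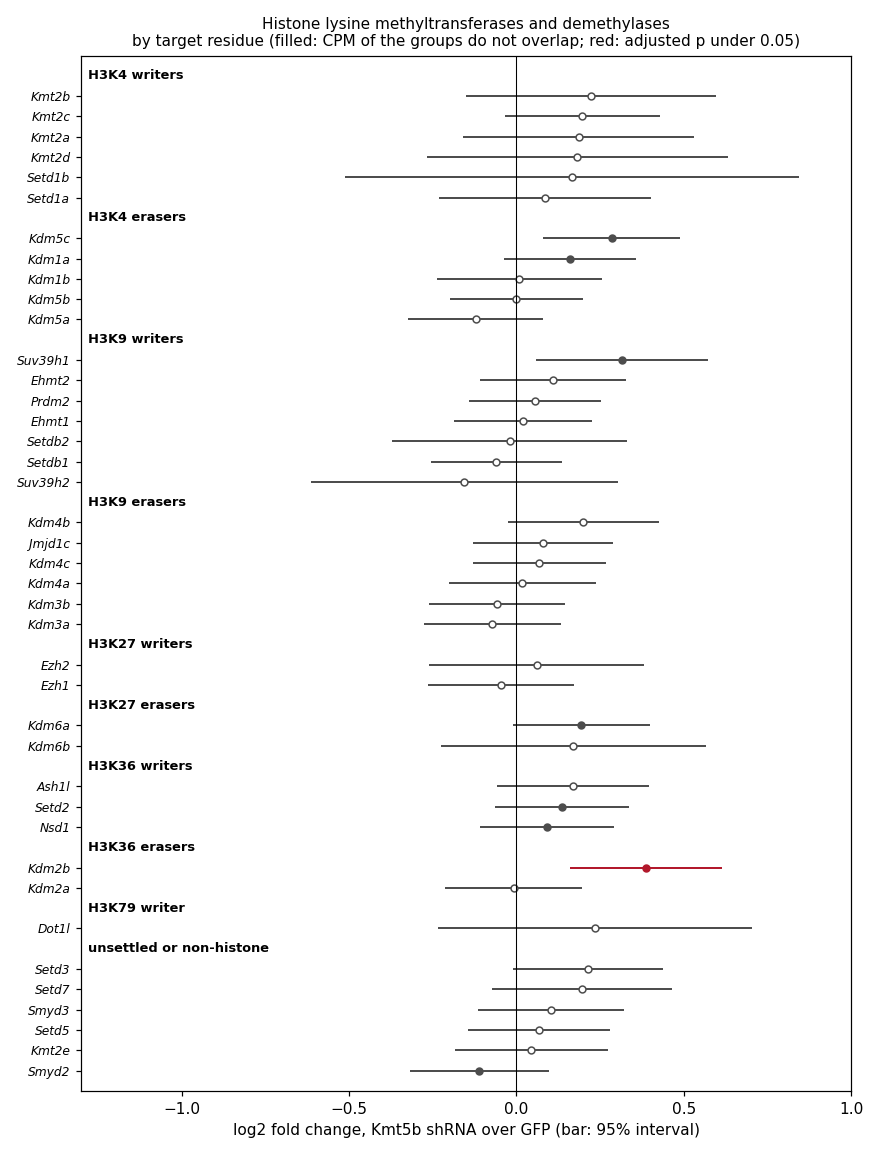
Log2 fold change of each of the 40 members, Kmt5b shRNA over GFP, by target residue, with 95% intervals. Filled points have groups whose CPM do not overlap and red marks an adjusted p under 0.05, which Kdm2b alone has, at 0.39; the 6 H3K4 writers all lie above 0 with intervals that cover 0.

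The H3K36 erasers Kdm2a and Kdm2b share a CXXC zinc finger that binds unmethylated CpG, and Kdm2b also brings a variant Polycomb complex to CpG islands. Kdm2b (chromosome 5, 122870665 to 122989823, minus strand, mm10) had 24.6, 22.4 and 23.7 CPM in Kmt5b shRNA, against 16.8, 18.1 and 19.2 CPM in GFP. All 3 Kmt5b shRNA libraries lay above all GFP libraries, with means of 23.6 ± 1.11 CPM in Kmt5b shRNA and 18.03 ± 1.17 CPM in GFP (SD, n = 3 each). This gave a log2 fold change of 0.39 ± 0.10 (SE), at an adjusted p of 0.0296 by edgeR. The call was lost without Kmt5b shRNA library 1 (0.36, adjusted p = 0.14), without Kmt5b shRNA library 3 (0.39, adjusted p = 0.0635), without GFP library 1 (0.34, adjusted p = 0.0932) and without GFP library 2 (0.39, adjusted p = 0.0655). Without GFP library 3 (0.44, adjusted p = 0.0401) or Kmt5b shRNA library 2 (0.42, adjusted p = 0.0316) it was kept. Of the astrocyte and the lymphocyte markers 3 each were called lower, as given above, and their part in this result was not tested.

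Part of the Kdm2b transcript exists a further time in the genome, which bears on how its reads can be counted. The processed pseudogene Gm12397 (chromosome 4, 40912741 to 40913355, minus strand) is an intronless copy of 615 bases, and all 615 match bases 3515 to 4129 of the Kdm2b coding transcript, whose coding part runs from base 200 to base 4126. It carries 3 exon joins of Kdm2b without their introns. A stretch around the join of exons 21 and 22 (of 23) is shown because a read inside it fits both places; the capitals mark the bases on both sides of the join, where the Kdm2b gene has an intron of 591 bases (between 122879245 and 122878653 on chromosome 5) and Gm12397 (40913082 to 40913201 on chromosome 4) has none.
Kdm2b and Gm12397: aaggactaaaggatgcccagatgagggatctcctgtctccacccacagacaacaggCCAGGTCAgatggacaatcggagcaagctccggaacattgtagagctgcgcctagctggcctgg
The sequence is from the GENCODE M21 transcripts of GRCm38, and the 120 bases are the same in both genes.

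Few reads were counted for the copy, and its point values ran the other way. Gm12397 had 40, 32 and 33 counts (0.703, 0.689 and 0.602 CPM) in Kmt5b shRNA, against 102, 28 and 102 counts (1.52, 0.911 and 1.304 CPM) in GFP. It was lower in Kmt5b shRNA without overlap and was not called (log2 fold change -0.92 ± 0.32, adjusted p = 0.109). With the copy's reads added, Kdm2b had 25.3, 23.1 and 24.3 CPM in Kmt5b shRNA, against 18.4, 19.0 and 20.5 CPM in GFP, so the groups still did not overlap. A further fit, with the intronless copies found among the deposited gene symbols added to their parents, called 294 genes higher and 308 lower in all. The log2 fold change of Kdm2b was then 0.32 ± 0.10, with an adjusted p of 0.156. Among protein-coding genes only it was 0.37 with an adjusted p of 0.0765, and with total-count scaling 0.34 with an adjusted p of 0.0985. Over the alternatives that keep all libraries the adjusted p ran from 0.014 to 0.156. Kdm2b exons also overlap those of Rnf34 on the other strand over 627 bases, and whether strand was used in counting is not given in the sources used here. The same limit holds for other genes given below. Among them are Suv39h1 (Gm14820, 767 bases), Smyd2 (Gm37422, 814 bases) and the partner Morf4l1 (Gm26882, 1499 bases).

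Kdm2a, the close relative of Kdm2b, had 109, 105 and 116 CPM in Kmt5b shRNA, against 107, 118 and 106 CPM in GFP. The groups overlapped and the log2 fold change was -0.0081 ± 0.094 (95% interval -0.21 to 0.19, adjusted p = 0.984). Per kilobase of exon, Kdm2a stood at 3.33 to 3.67 times the level of Kdm2b in the Kmt5b shRNA libraries and at 4.17 to 4.93 times in the GFP libraries.

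None of the H3K36 writers was called, although Setd2 and Nsd1 had groups that did not overlap. Setd2, which trimethylates H3K36 behind elongating RNA polymerase II, had 138, 152 and 150.3 CPM in Kmt5b shRNA, against 137, 132 and 132 CPM in GFP (log2 fold change 0.14 ± 0.092, adjusted p = 0.534). Nsd1, which dimethylates H3K36, had 343, 356 and 362 CPM in Kmt5b shRNA, against 331, 329.8 and 335 CPM in GFP (0.091 ± 0.093, adjusted p = 0.724). It had the highest CPM of the members and a fitted difference of 6.49%. Ash1l, a Trithorax-group writer of the same mark, had 282, 295 and 288 CPM in Kmt5b shRNA, against 284, 224 and 261 CPM in GFP. Its groups overlapped through GFP library 1, and the log2 fold change was 0.17 ± 0.11 (adjusted p = 0.481).

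The 6 writers of H3K4 shared a pattern across libraries more than a difference between groups. They are Kmt2a and Kmt2b, the MLL enzymes of promoters, Kmt2c and Kmt2d, which act at enhancers, and Setd1a and Setd1b, the COMPASS writers of promoter trimethylation. All 6 had a log2 fold change above 0, from 0.085 for Setd1a to 0.22 for Kmt2b, with a median of 0.18, and none was called. Kmt2c had 158, 171 and 195 CPM in Kmt5b shRNA, against 138, 162 and 157 CPM in GFP, so that its groups overlapped (0.20 ± 0.11, adjusted p = 0.392). Kmt2b had 37.1, 30.3 and 47.3 CPM in Kmt5b shRNA, against 26.1, 37.0 and 35.5 CPM in GFP, with Kmt5b shRNA library 2 below GFP libraries 2 and 3 (0.22 ± 0.17, adjusted p = 0.607). Setd1b spread widest, with 14.1, 12.7 and 20.9 CPM in Kmt5b shRNA, against 9.34, 18.9 and 14.6 CPM in GFP, and its interval ran from -0.51 to 0.84.

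GFP library 1 was the lowest of the 6 libraries for all 6 H3K4 writers, and Kmt5b shRNA library 3 was the highest for 5 of them. Setd1a was highest in GFP library 2. The median SD within groups was 0.28 on the log2 scale for these writers and 0.091 for the other members. It was 0.14 over 12949 protein-coding genes of average log2 CPM over 1. Kmt2c of the writers had 0.14, while Dot1l (0.34), Suv39h2 (0.27) and Kdm6b (0.24) of the other members were wider than that. Their median log2 fold change was 0.027 without GFP library 1 and 0.046 without Kmt5b shRNA library 3, and it was 0.20 to 0.33 when any of the others was left out. Of all 40 members 14 were lowest in GFP library 1 (35%, against 14.1% of all genes) and 17 were highest in Kmt5b shRNA library 3 (42.5%, against 16.5% of all genes). Dot1l, Kdm6b, Kdm5c, Prdm2, Jmjd1c, Kmt2e and Setd5 were also lowest in GFP library 1 and highest in Kmt5b shRNA library 3.

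The members that moved this way tended to have long transcripts, but not all members with long transcripts moved this way. Over the 40 members, the log2 difference of GFP library 1 from the other GFP libraries had a Spearman's rho of -0.51 with coding transcript length, and that of Kmt5b shRNA library 3 from the other Kmt5b shRNA libraries a rho of 0.54. These differences were -0.60 and 0.44 for Kmt2d (19823 bases). They were -0.0052 and 0.050 for Nsd1 (12784 bases), 0.23 and -0.0016 for Ash1l (11644 bases) and 0.051 and -0.060 for Kdm5a (10944 bases). With transcript GC content rho was -0.27 and 0.33. Over 12949 protein-coding genes of average log2 CPM over 1, rho with length was -0.19 and 0.17 for the same libraries, and with GC content -0.11 and 0.16. These are descriptions across genes of the same 6 libraries, and genes are not independent replicates. The part of length or RNA quality in the pattern was not tested.

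**Figure D2:**
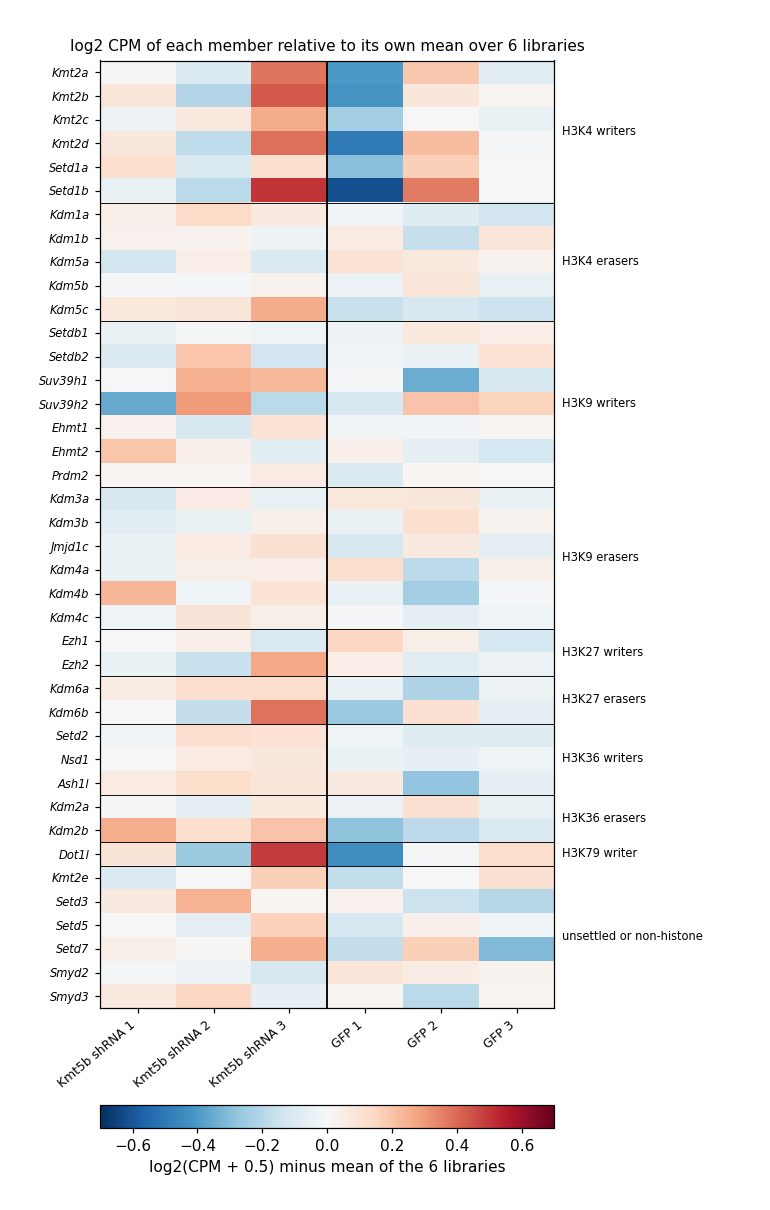
Log2(CPM + 0.5) of each member minus its own mean over the 6 libraries, with Kmt5b shRNA libraries on the left and GFP libraries on the right, by target residue. The H3K4 writers are blue in GFP 1 and red in Kmt5b shRNA 3, and other members, among them Kdm6b and Dot1l, share this. Kdm2b is red in all Kmt5b shRNA libraries and blue in all GFP libraries.

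Among the H3K4 erasers, Kdm5c and Kdm1a had groups that did not overlap, and none was called. Kdm5c, an X-linked Jumonji demethylase of H3K4 (chromosome X, 152233020 to 152274535, plus strand), had 94.8, 95.3 and 108 CPM in Kmt5b shRNA, against 80.7, 83.1 and 81.0 CPM in GFP. All Kmt5b shRNA libraries lay above all GFP libraries, and the log2 fold change was 0.28 ± 0.094 with an adjusted p of 0.0884. DESeq2 called it (0.29, adjusted p = 0.0421), while the adjusted p over the alternatives with all libraries ran from 0.0421 to 0.197. Kdm5c too was lowest in GFP library 1 and highest in Kmt5b shRNA library 3. Its log2 fold change was 0.28 without the former (adjusted p = 0.125) and 0.23 without the latter (adjusted p = 0.291). Kdm1a, the catalytic subunit of the CoREST corepressor, had 92.4, 98.9 and 93.7 CPM in Kmt5b shRNA, against 88.6, 84.6 and 82.1 CPM in GFP (0.16 ± 0.091, adjusted p = 0.427). Its relative Kdm1b and the Jumonji erasers Kdm5a and Kdm5b had log2 fold changes of 0.0087, -0.12 and 0.000082, all with overlapping groups. Kdm5a was the member of this group with the lowest log2 fold change, with 96.0, 108 and 97.8 CPM in Kmt5b shRNA, against 112, 109.9 and 107 CPM in GFP.

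The 7 H3K9 writers had a median log2 fold change of 0.019, and none was called. Suv39h1, which trimethylates H3K9 in pericentromeric heterochromatin and is X-linked (chromosome X, 8061171 to 8074760, minus strand), had 20.997, 25.1 and 24.8 CPM in Kmt5b shRNA, against 20.9, 16.5 and 19.4 CPM in GFP. The groups did not overlap, though Kmt5b shRNA library 1 and GFP library 1 nearly met, and the log2 fold change was 0.32 ± 0.12 (adjusted p = 0.148). Its relative Suv39h2 had 3.71, 6.11 and 4.21 CPM in Kmt5b shRNA, against 4.47, 5.66 and 5.50 CPM in GFP, the least CPM of any member (-0.16 ± 0.21). Ehmt2, which with Ehmt1 forms the main H3K9 dimethyltransferase of euchromatin, had 182, 163 and 150.9 CPM in Kmt5b shRNA, against 163, 151 and 146 CPM in GFP, with overlapping groups (0.11 ± 0.10, adjusted p = 0.687). The remaining writers Setdb1, Setdb2, Ehmt1 and Prdm2 lay between -0.060 and 0.055 with groups that overlapped.

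The 6 H3K9 erasers lay between -0.072 for Kdm3a and 0.20 for Kdm4b, and all had overlapping groups. Kdm4b, a Jumonji enzyme that removes H3K9 trimethylation, had 84.8, 70.6 and 77.1 CPM in Kmt5b shRNA, against 69.7, 60.8 and 71.8 CPM in GFP (0.20 ± 0.10, adjusted p = 0.364). GFP library 3 lay just above Kmt5b shRNA library 2. Jmjd1c, a large Kdm3 relative, had 144, 155 and 161 CPM in Kmt5b shRNA, against 138, 156 and 142 CPM in GFP (0.079 ± 0.096, adjusted p = 0.783). Kdm4a, Kdm4c, Kdm3a and Kdm3b lay between -0.072 and 0.068. Kdm3b exons overlap the antisense gene Gm26538 over 3468 bases, and Kdm3b has 1 intronless copy whose reads were not added to it, so its count is uncertain.

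Of the Polycomb mark H3K27, neither the writers nor the erasers were called. Ezh1, the PRC2 subunit prevalent in resting cells, had 83.7, 86.3 and 77.6 CPM in Kmt5b shRNA, against 92.7, 86.3 and 76.7 CPM in GFP (-0.046 ± 0.10, adjusted p = 0.892). Ezh2, the subunit prevalent in dividing cells, had 9.10, 8.39 and 11.5 CPM in Kmt5b shRNA, against 9.75, 8.91 and 9.13 CPM in GFP (0.060 ± 0.15, adjusted p = 0.91). Per kilobase of exon, Ezh1 stood at 6.07 to 9.23 times the level of Ezh2 in Kmt5b shRNA and at 7.54 to 8.69 times in GFP, so the ratio of these subunits overlapped between the groups. Kdm6a, the X-linked H3K27 demethylase UTX, had 52.8, 55.4 and 55.4 CPM in Kmt5b shRNA, against 49.3, 43.9 and 49.7 CPM in GFP, with no overlap (0.19 ± 0.095, adjusted p = 0.318). Kdm6b, its inducible relative, had 6.99, 6.15 and 9.24 CPM in Kmt5b shRNA, against 5.76, 7.55 and 6.67 CPM in GFP, with overlap (0.17 ± 0.18, adjusted p = 0.743).

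Dot1l, the H3K79 methyltransferase, had 30.8, 24.1 and 40.8 CPM in Kmt5b shRNA, against 21.2, 28.6 and 31.5 CPM in GFP. The groups overlapped, with Kmt5b shRNA library 2 below GFP libraries 2 and 3, and the log2 fold change was 0.23 ± 0.20 (adjusted p = 0.67). It was 0.027 without Kmt5b shRNA library 3, 0.086 without GFP library 1 and 0.26 to 0.40 without any of the others.

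**Figure D3:**
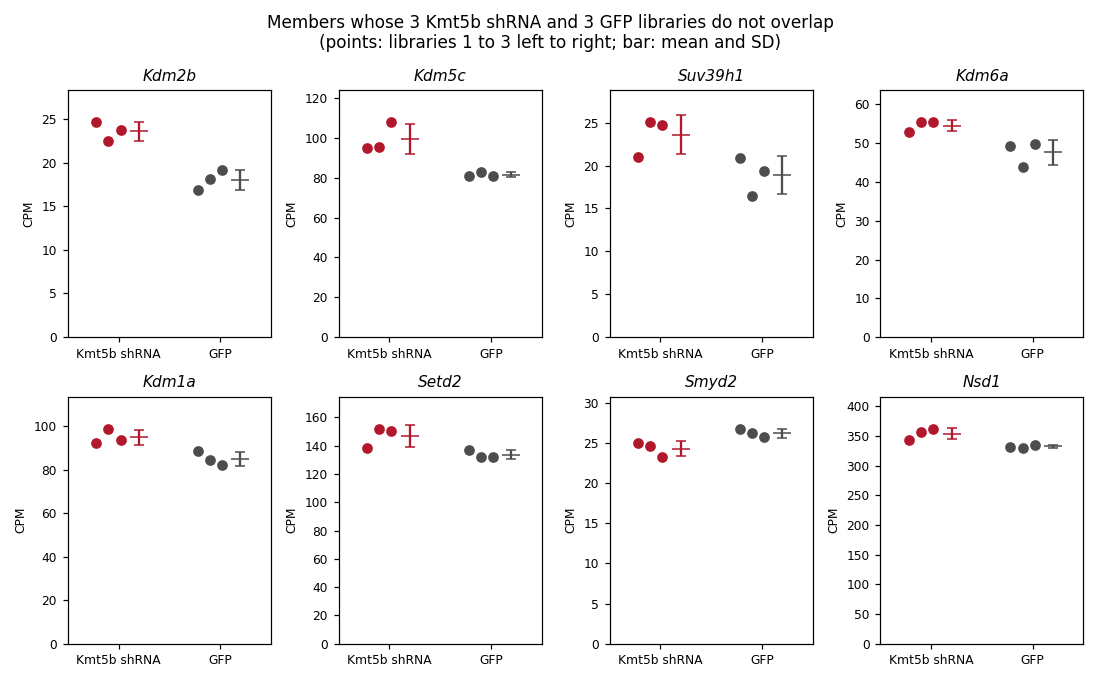
CPM of the 8 members whose Kmt5b shRNA libraries (left, red) do not overlap their GFP libraries (right, grey), 1 point per library, with the mean and SD of 3 libraries. Smyd2 alone is lower in Kmt5b shRNA; Kdm2b lies at 22.4 to 24.6 CPM in Kmt5b shRNA and at 16.8 to 19.2 CPM in GFP.

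Of the 6 members with an unsettled or non-histone substrate none was called. Setd3, known as the actin histidine methyltransferase, had 188, 213 and 181 CPM in Kmt5b shRNA, against 184, 162 and 156 CPM in GFP, and the groups overlapped by Kmt5b shRNA library 3 and GFP library 1 (0.21 ± 0.10, adjusted p = 0.315). Setd7, which methylates many non-histone proteins, had 224, 219 and 260.1 CPM in Kmt5b shRNA, against 194, 244 and 176 CPM in GFP (0.20 ± 0.12, adjusted p = 0.494). Smyd2, which methylates p53 among other proteins, was the member lower in Kmt5b shRNA without overlap, with 24.99, 24.6 and 23.3 CPM in Kmt5b shRNA, against 26.8, 26.2 and 25.7 CPM in GFP (-0.11 ± 0.10, adjusted p = 0.66). Smyd3, Setd5 and Kmt2e lay between 0.044 and 0.10 with overlapping groups.

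Setd3 has 2 intronless copies, Gm14026 and Gm7114, whose counts differed far more than those of the gene. Gm14026 had 104, 93 and 93 counts in Kmt5b shRNA, against 1024, 515 and 1143 counts in GFP. Its longest match to Setd3 ran over 1797 bases at 97.2% identity. Together the copies had 2.41, 2.47 and 2.04 CPM in Kmt5b shRNA, against 19.9, 20.01 and 17.9 CPM in GFP. With their reads added, Setd3 had 191, 215 and 183 CPM in Kmt5b shRNA, against 204, 182 and 174 CPM in GFP, and its log2 fold change was 0.058 ± 0.10 in place of 0.21. Kmt2d has 1 such copy, Gm47184, with 1, 0 and 0 counts in Kmt5b shRNA, against 30, 16 and 50 counts in GFP, beside at least 84.8 CPM of Kmt2d in every library. How reads were shared between genes and copies, and whether this was done alike in both groups, is not given in the sources used here, so the values of Setd3 and Kmt2d hold that limit. Setd1a shares 3527 bases at full identity with the overlapping gene Gm49388, and its count is likewise uncertain.

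Kdm5c and Kdm6a escape X inactivation and have Y-linked relatives, Kdm5d and Uty, which were read in all 6 libraries. Kdm5d had 45.9, 49.5 and 42.6 CPM in Kmt5b shRNA, against 48.5, 56.8 and 49.9 CPM in GFP, which overlap (-0.17, adjusted p = 0.461). Uty had 38.4, 43.1 and 36.6 CPM in Kmt5b shRNA, against 47.5, 46.6 and 44.7 CPM in GFP, lower without overlap (-0.23, adjusted p = 0.21). The sum of Kdm6a and Uty was 91.2, 98.4 and 92.1 CPM in Kmt5b shRNA, against 96.8, 90.5 and 94.5 CPM in GFP, with a log2 fold change of -0.0012. The sum of Kdm5c and Kdm5d was 141, 145 and 150.5 CPM in Kmt5b shRNA, against 129, 139.9 and 131 CPM in GFP, without overlap (0.12, adjusted p = 0.579). Kdm6a and Uty share a stretch of 279 bases at 91.4% identity.

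Kdm5c, Kdm6a and Suv39h1 are the X-linked members, and all 3 had groups that did not overlap and were higher in Kmt5b shRNA. Among the 547 tested protein-coding genes of chromosome X, 15.9% were higher without overlap, against 12.3% of all 15778 protein-coding genes tested. The median log2 fold change of the X-linked genes was 0.050, against 0.0094 over all protein-coding genes. The part of the chromosome in the values of these members was not tested.

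**Figure D4:**
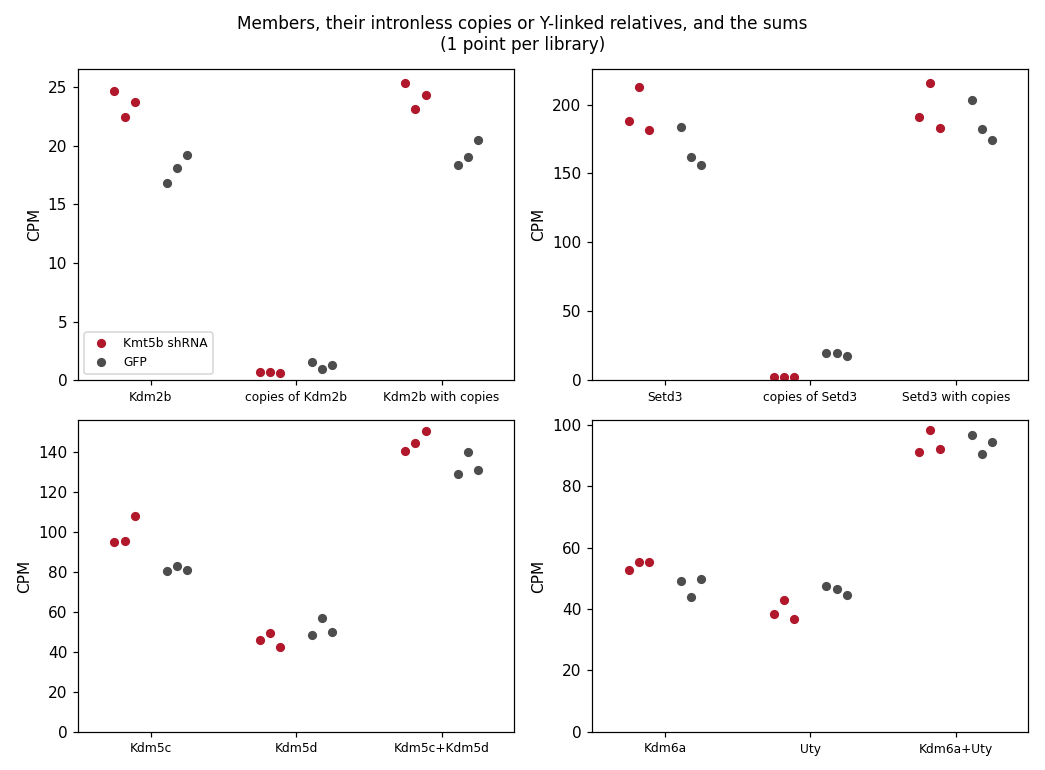
CPM of Kdm2b and Setd3 with their intronless copies, and of Kdm5c and Kdm6a with their Y-linked relatives, and the sums, 1 point per library, Kmt5b shRNA left (red) and GFP right (grey) in each pair. Kdm2b stays apart with its copy added, while Setd3 with copies and the sum of Kdm6a and Uty overlap between the groups.

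The levels of the members per kilobase of exon spanned a 29.5-fold range. The length used joins all annotated exons of a gene and can exceed that of its coding transcript by unlike amounts. It was 18.3 kilobases against 6755 bases for Setd5, and 16.7 kilobases against 16470 bases for Kmt2a. The order and the ratios between genes depend on this choice of length. Averaged over the 6 libraries, Setd3 (30.0 CPM per kilobase) and Ehmt2 (29.0 CPM per kilobase) stood highest, followed by Setd7, Nsd1 and Ash1l. Kdm6b (1.02 CPM per kilobase), Suv39h2, Setd1b and Ezh2 stood lowest. Of the 39 pairs of neighbours in this order 37 had ranges over the libraries that overlapped, and the exceptions were Ehmt2 over Setd7 and Kdm1b over Kdm2b. Within families of like activity, Ehmt2 stood at 3.85 to 4.87 times Ehmt1 in Kmt5b shRNA and 3.96 to 4.51 times in GFP. Kdm1a stood at 5.62 to 6.04 times Kdm1b in Kmt5b shRNA and 4.82 to 5.92 times in GFP. Suv39h1 stood at 3.43 to 4.92 times Suv39h2 in Kmt5b shRNA and 2.43 to 3.90 times in GFP.

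**Figure D5:**
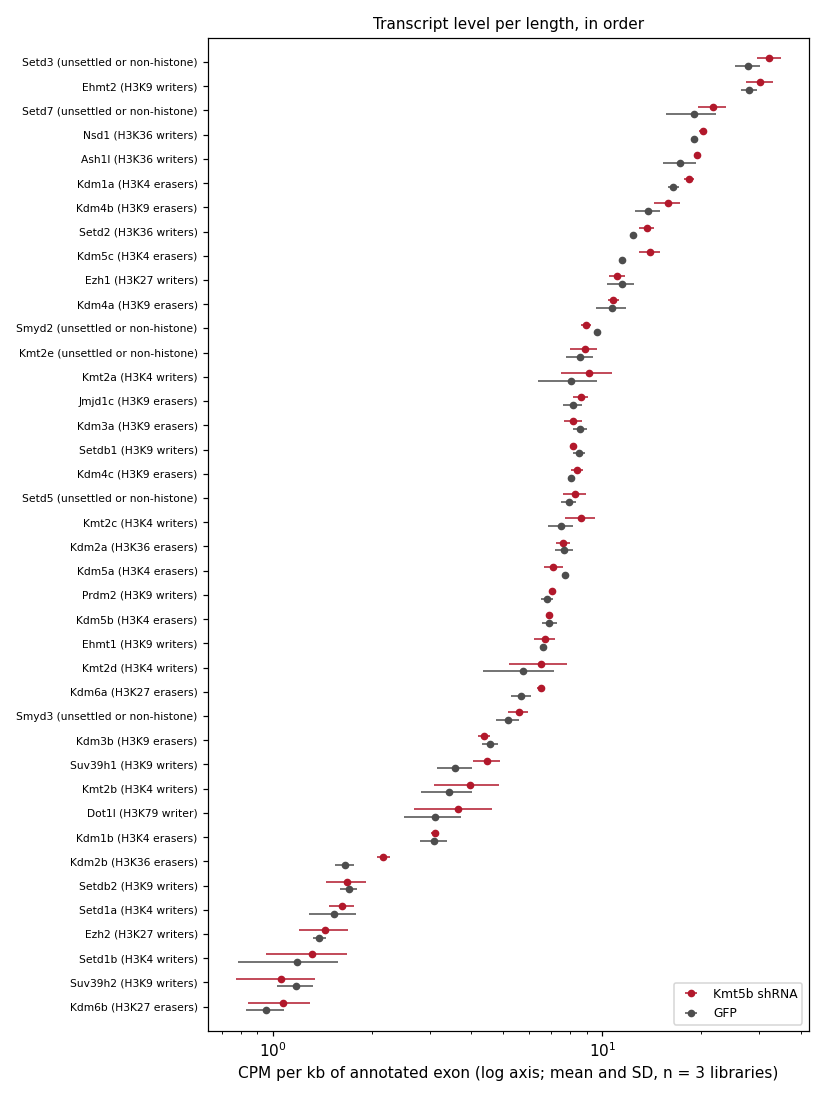
Level of each member in CPM per kilobase of annotated exon on a log axis, mean and SD of 3 libraries, Kmt5b shRNA (red) above GFP (grey). Members are in order of their mean over 6 libraries, from Setd3 at 30.0 down to Kdm6b at 1.02, a 29.5-fold range.

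Start sites of the 3 members with an unadjusted p under 0.05 are shown with their CpG, the letters that the CXXC finger of Kdm2b binds, because these promoters differ in how much they hold. The windows are the 250 bases before the RefSeq start site (GRCm38.p6), with each CG in capitals. They are chr5:122989100-122989349 on the minus strand for Kdm2b, chrX:152232977-152233226 on the plus strand for Kdm5c and chrX:8074761-8075010 on the minus strand for Suv39h1.
Kdm2b: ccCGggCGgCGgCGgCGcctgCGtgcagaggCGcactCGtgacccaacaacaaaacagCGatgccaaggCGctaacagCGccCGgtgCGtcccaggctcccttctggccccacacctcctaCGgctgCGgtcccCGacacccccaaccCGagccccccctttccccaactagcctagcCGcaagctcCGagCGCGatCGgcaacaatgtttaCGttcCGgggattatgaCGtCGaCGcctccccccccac
Kdm5c: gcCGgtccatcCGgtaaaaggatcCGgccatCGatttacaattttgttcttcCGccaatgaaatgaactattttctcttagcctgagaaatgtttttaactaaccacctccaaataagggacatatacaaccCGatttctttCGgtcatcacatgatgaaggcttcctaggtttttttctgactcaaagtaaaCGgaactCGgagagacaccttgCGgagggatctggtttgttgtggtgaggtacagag
Suv39h1: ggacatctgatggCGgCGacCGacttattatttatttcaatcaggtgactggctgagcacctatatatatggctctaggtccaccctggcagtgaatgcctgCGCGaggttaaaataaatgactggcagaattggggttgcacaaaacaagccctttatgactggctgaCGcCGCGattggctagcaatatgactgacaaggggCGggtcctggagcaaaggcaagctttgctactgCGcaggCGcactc
Kdm2b held 27 CG, a number reached by 8.56% of the 32851 windows of the table, while Kdm5c held 10 (37.8%) and Suv39h1 held 11 (35.6%). The 28 members with a window held a median of 22.5 CG, against 6 over all windows. For a member only the window nearest the annotated start of its gene was kept. All windows of the table were counted without such a choice, so the shares here compare unlike sets. On either strand, the GC box GGGCGG was in 18 of 28 members' windows (64.3%, against 32.7% of all windows) and CCAAT in 9 (32.1%, against 33.8%). The ETS core CCGGAAG was in 2 (7.14%, against 6.91%). These matches describe letters only.

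Enzymes of this kind work in complexes, so 74 partner and related genes were read in the same fit. Pagr1a was listed at 0 in all 6 libraries, and Ezhip was not analysed here. Of the 72 tested, 5 were called higher, beside 2.77% of all genes, and none lower, and the median log2 fold change was 0.085. Epop, an elongin-binding PRC2 subunit, had 45.4, 35.8 and 43.9 CPM in Kmt5b shRNA, against 33.4, 25.6 and 26.7 CPM in GFP, without overlap (0.54 ± 0.12, adjusted p = 0.00958). The call ended without Kmt5b shRNA library 1 (adjusted p = 0.0733), GFP library 2 (0.0505) or GFP library 3 (0.0532). Kdm7a, a PHD-Jumonji demethylase of H3K9 and H3K27, had 134, 141 and 148 CPM in Kmt5b shRNA, against 120.5, 95.5 and 104 CPM in GFP, also without overlap (0.40 ± 0.10, adjusted p = 0.0219). Its adjusted p was 0.0522 to 0.0899 when any library other than GFP library 1 was left out, and 0.069 with copies added to parents. In a fit of protein-coding genes that share no sequence with other genes, Epop stood at 0.54 (adjusted p = 0.0722) and Kdm7a at 0.40 (adjusted p = 0.0773), and neither was called.

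The other called partners have intronless copies. The Hdac1 copy Gm10093 had 32, 43 and 70 counts in Kmt5b shRNA, against 378, 183 and 560 counts in GFP. Hdac1, the CoREST deacetylase, had 13.6, 14.2 and 12.9 CPM in Kmt5b shRNA, against 7.34, 7.22 and 7.67 CPM in GFP (0.87 ± 0.13, adjusted p = 0.000177). With the reads of 2 of its 3 copies added it had 14.1, 15.1 and 14.2 CPM in Kmt5b shRNA, against 13.1, 13.2 and 15.0 CPM in GFP. The log2 fold change was then 0.061 (adjusted p = 0.897). Cbx3, which binds methylated H3K9, had 55.8, 68.8 and 57.1 CPM in Kmt5b shRNA, against 23.1, 19.0 and 19.5 CPM in GFP (1.56 ± 0.12, adjusted p = 9.71e-08). Morf4l1, a reader of H3K36 methylation, had 126, 142 and 122 CPM in Kmt5b shRNA, against 37.4, 32.3 and 34.8 CPM in GFP (1.90 ± 0.10, adjusted p = 2.33e-09). With the reads of 17 copies added, Cbx3 stood at 1.36. With the reads of 5 of its 8 copies added, Morf4l1 stood at 1.83. The other copies of Hdac1 and Morf4l1 were not among the gene rows used, so these sums are incomplete.

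The partners of smallest p in each list that were not called stood between -0.23 and 0.31. They were Wdr82 (0.24, adjusted p = 0.268) and Ncoa6 (0.26, 0.224) among COMPASS and MLL subunits and Rbbp7 (0.25, 0.21) in PRC2. With the reads of its intronless copy Gm6382 added, Rbbp7 had 149, 163 and 139 CPM in Kmt5b shRNA, against 146, 118 and 127 CPM in GFP. Its log2 fold change ran from 0.19 to 0.27 over the alternatives with all libraries. Wiz (0.31, 0.189), a zinc finger partner of Ehmt1 and Ehmt2, and Rcor1 (0.23, 0.324), the scaffold of CoREST, were higher in Kmt5b shRNA by point value, as was Mllt6 (0.30, 0.0628), a DOT1L partner. Mllt6 was called by DESeq2 (0.31, adjusted p = 0.0148), with a minimum count of 50 (adjusted p = 0.0383) and without GFP library 1 (adjusted p = 0.0349), and its adjusted p over the alternatives with all libraries ran from 0.0148 to 0.157. Uty is given above.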

How the data were processed

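The authors deposited raw read counts per gene symbol for 6 libraries, with 54429 gene symbols each. Libraries were stranded and depleted of ribosomal RNA, and trimmed reads were aligned with TopHat2, per the labels' protocols. The tools named per the submitters' processing notes are STAR, featureCounts and DESeq2, with build mm10, so the sources name more than 1 aligner, and whether both groups were processed alike is not given in the sources used here. The sample titles gave each library its group and number. The deposited GFP files carry a further number each (2, 11 and 12 for libraries 1, 2 and 3) whose meaning is not given, and the Kmt5b shRNA files carry none.

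Counts were filtered by filterByExpr and tested with edgeR 4.0.16 in R 4.3.3: TMM scaling, robust quasi-likelihood with legacy=TRUE, Kmt5b shRNA minus GFP, Benjamini-Hochberg adjusted p under 0.05 over 24419 genes. The SE was taken from the fold change and its F statistic, and CPM use TMM library sizes. Depth sets counting error, and the intervals also take in the spread between libraries. Replicates of a group differed beyond counting error (chi-square 17.9 to 42.7 per gene). The fit was tested on simulated data, but the outcome is not given here, so no value above rests on it.

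The members, the partner lists and the residue groups were chosen with earlier results of these data known. Named with full values were called members, members without overlap and the 2 of smallest p per residue group, and of partners the called and the 2 of smallest p per list.

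Intronless copies came from BLAST+ 2.17.0 alignment of GENCODE M21 transcripts (90% identity over at least 100 bases, 50% of the copy covered), which gave 5510 copies of 1803 parents. Only copies found among the deposited gene symbols were counted or added to a parent. Genes sharing no sequence had no match of 200 bases. Exon lengths are from the same annotation and join all annotated exons of a gene. Promoters are from RefSeq (GRCm38.p6) for 28 of 40 members.

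Alternatives were DESeq2 1.42.0, other scalings and filters, a replicate block, each library left out, protein-coding genes only, genes sharing no sequence, copies added to parents, and Y-linked relatives added to Kdm5c and Kdm6a, the last chosen after seeing the data.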

Additional observations from a re-analysis of the deposited data

How the results depend on the processing

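Of 675 fold changes of members under 17 alternatives, 639 kept their direction, and 36, in 13 members, changed it. None of those 13 was called in any setting. The number of members called higher, 1 with all libraries, was 0 with total-count scaling, with protein-coding genes only, with genes sharing no sequence (where Kdm2b was left out) and with copies added to parents, 2 with DESeq2, and 0 to 1 when each library was left out. Over all genes, protein-coding genes only gave 184 lower calls, genes sharing no sequence 52 higher and 27 lower, and copies added to parents 294 higher and 308 lower. Each of these settings also tested fewer genes, at 15778, 12792 and 22673 in the same order, against 24419 in the main fit. Of the 1390 lower calls among all genes, 996 were intronless copies, a class that these settings leave out for the most part or add to other genes. The cause was otherwise not tested.

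With total-count scaling the median log2 fold change was 0.040 for all members, -0.035 for H3K4 erasers, -0.024 for H3K9 writers, -0.00064 for H3K9 erasers and 0.040 for members of unsettled substrate. The median of H3K36 erasers was -0.016 among genes sharing no sequence, where Kdm2a alone was left. When each library was left out, the medians ran from 0.046 to 0.11 for all members, 0.0069 to 0.056 for H3K4 erasers and 0.016 to 0.063 for H3K9 writers.

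Members near 0 changed sign. With total-count scaling Kdm1b stood at -0.035, Kdm5b at -0.046, Ehmt1 at -0.024, Kdm4a at -0.025 and Kmt2e at -0.0038. Kdm1b and Kdm5b stood at -0.0071 and -0.014 with protein-coding genes only, at -0.0012 and -0.0084 among genes sharing no sequence, and at -0.0066 and -0.015 with copies added to parents. Kdm2a stood at 0.0020 with relative log expression scaling and at 0.0023 with DESeq2, and Kdm6a at -0.0012 with Uty added. When each library was left out, the log2 fold change ran from -0.019 to 0.077 for Ehmt1, -0.12 to 0.022 for Ezh1, -0.073 to 0.15 for Ezh2, -0.058 to 0.056 for Kdm1b, -0.036 to 0.050 for Kdm2a, -0.058 to 0.082 for Kdm4a, -0.025 to 0.051 for Kdm5b, -0.0038 to 0.29 for Kdm6b, -0.025 to 0.11 for Kmt2e, -0.035 to 0.20 for Setd1a, -0.070 to 0.41 for Setd1b and -0.14 to 0.055 for Setdb2.

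The correlation of deviations between same-numbered libraries was -0.078, -0.12 and 0.37 over 15056 genes, for libraries 1, 2 and 3. Between libraries of unlike number it ran from -0.38 (Kmt5b shRNA 3 with GFP 1) to 0.44 (Kmt5b shRNA 2 with GFP 1). These values showed no steady pairing by number, and the main fit used none. With the replicate block 1 member, Kdm2b, was called, and 704 genes were higher and 1507 lower. GFP library 2 was the shallowest, at 29490771 counts.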
